A study of Mus musculus with 2 samples.

Results

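Endothelial cells carrying an arteriolar signature were picked out of a single-cell RNA sequencing survey of the mouse aortic arch by counting 6 genes in each cell: Stc1, Igfbp3, Hey1, Sema3g, Eps8l2 and Slc26a10. A cell was a member when at least 3 of the 6 genes had at least 1 unique molecular identifier (UMI, the tag that counts 1 captured transcript). It also needed at least 1 UMI each of the endothelial genes Pecam1 and Cdh5, fewer than 5 UMIs of the luminal genes Vwf and Vcam1 together, no UMI of the leukocyte gene Ptprc, and under 0.2% of its UMIs from the macrophage genes C1qa, C1qb and C1qc. The rule found 562 cells among 8155 kept cells, of which 334 of 5416 came from the control library and 228 of 2739 from the diet library. Of 10234 and 14225 deposited barcodes, those kept had 200 genes or more, 200 UMIs or more and no more than 30% of UMIs from mitochondrial genes.

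The donors were male C57BL/6 mice at 16 weeks of age, and every animal carried the Apoe deletion (Apoe-/-), controls included. The deletion removes the main ligand by which liver cells take up remnant lipoproteins, so blood cholesterol is high and plaques form on a fatty diet. One group ate a normal diet (ND, control) and the other a high fat, high cholesterol diet (HFD) from weaning until harvest, and cells of 2 aortas were pooled into 1 library per diet. With 1 library per diet there was no replicate, so no difference was tested. Every interval below is an exact 95% interval that covers counting error only, and diet, animals and library preparation cannot be told apart. Because the members were chosen by the UMI counts of the 6 genes in these same cells, differences between the members and other cells are likewise given as a description. Reads at the end of Apoe still gave 62.6 CPM in ND members (CPM is the summed UMIs of a gene per 1000000 UMIs of the group) and 72.4 CPM in HFD members, and this does not check the deletion.

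Arterioles are the small muscular arteries that set the resistance of a vascular bed, and those of a large artery's outer wall belong to the vasa vasorum, the small vessels that supply the wall from outside. Endothelial cells along an artery, its arterioles and its capillaries differ in a graded way. Notch signalling, driven by Dll4 and Jag1 and read out by the Hey transcription factors, is the best known input to arterial fate, while capillary endothelium of fat, heart and muscle is specialised for taking up fatty acids. Of the 6 genes used here, Hey1 is a Notch target, Sema3g is a secreted semaphorin of arterial endothelium, Igfbp3 binds insulin-like growth factors, Stc1 is a secreted glycoprotein, Eps8l2 is an actin regulator and Slc26a10 belongs to an anion transporter family. Rbp7, a cytoplasmic retinol-binding protein gene, was not counted by the rule but had been named as a marker of these cells from the same data, so its level is no independent check of the label.

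Members were 17.1% (15.5 to 18.9) of the 1950 ND cells that passed the same endothelial and leukocyte limits, and 19.6% (17.3 to 22.0) of the 1164 HFD cells. Of all cells with Pecam1 and Cdh5 they were 13.9% of 2405 and 15.8% of 1447. With every cell thinned to 2000 UMIs the shares were 16.0% and 14.8%, so the order of the diets turned with depth, and the unthinned intervals overlapped. The median member had 5544 UMIs in ND and 6456.5 in HFD, against 3397 and 5059.5 in the capillary cells defined below. Mitochondrial transcripts took a median of 13.7% of a member's UMIs in ND and 19.3% in HFD. The limit of 3 genes cut through a continuous distribution. Just inside it, 181 ND and 124 HFD cells had exactly 3 genes, and just outside it 306 and 235 cells had 2. Members with 3 genes made up 54.2% of the ND members and 54.4% of the HFD members. Both libraries shared 39 barcodes in all and 1 kept barcode, and no member barcode was a member in both.

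As comparison cells, 1267 ND and 684 HFD capillary endothelial cells were taken with the same limits, at most 1 of the 6 genes and at least 1 UMI of Gpihbp1, which anchors lipoprotein lipase to the capillary wall. Another 230 ND and 113 HFD cells with at least 5 UMIs of Vwf and Vcam1 were taken as luminal cells of the aorta itself. Every member carried Pecam1 and Cdh5 by the rule, so other endothelial genes describe the members and do not check the label. Cldn5, a tight junction gene, stood at 2544 CPM in ND and 2696 CPM in HFD members, close to the 3122 and 2957 CPM of capillary cells. Kdr, the main VEGF receptor, stood at 1041 and 1136 CPM against 986 and 1270 CPM. Luminal cells had 544 and 667 CPM of Cldn5 and 126 and 109 CPM of Kdr. Cytl1, which marks the aortic lumen, was nearly absent, with 7 UMIs in all ND and 1 in all HFD members, against 4919 and 3039 CPM in luminal cells.

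Rbp7 differed between the groups and was also common in capillary cells. It stood at 1478 CPM (1429 to 1528) in ND members and 2013 CPM (1945 to 2082) in HFD members. Capillary cells had 468 CPM in ND and 940 CPM in HFD, and luminal cells had 45.4 and 48.1 CPM. The log2 ratio of members over capillary cells was 1.66 (1.59 to 1.73) in ND and 1.10 (1.03 to 1.17) in HFD. In members 311 of 334 ND cells (93.1%) and 226 of 228 HFD cells (99.1%) had an Rbp7 UMI, against 47.5% and 86.7% of capillary cells. Among lymphoid cells, which should lack the gene, 1.06% of 470 ND cells (median depth 3143.5 UMIs) and 1 of 32 HFD cells (5276.5 UMIs) had one. With cells under 2000 UMIs left out and the others thinned to 2000 UMIs, the shares were 79.8% and 92.1% in members and 37.0% and 69.0% in capillary cells. Of the lymphoid cells none had 3 of the 6 genes, and 3 cells of the total, the limit set for a count of 0, would be 0.638% in ND and 9.38% in HFD.

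**Figure D1:**
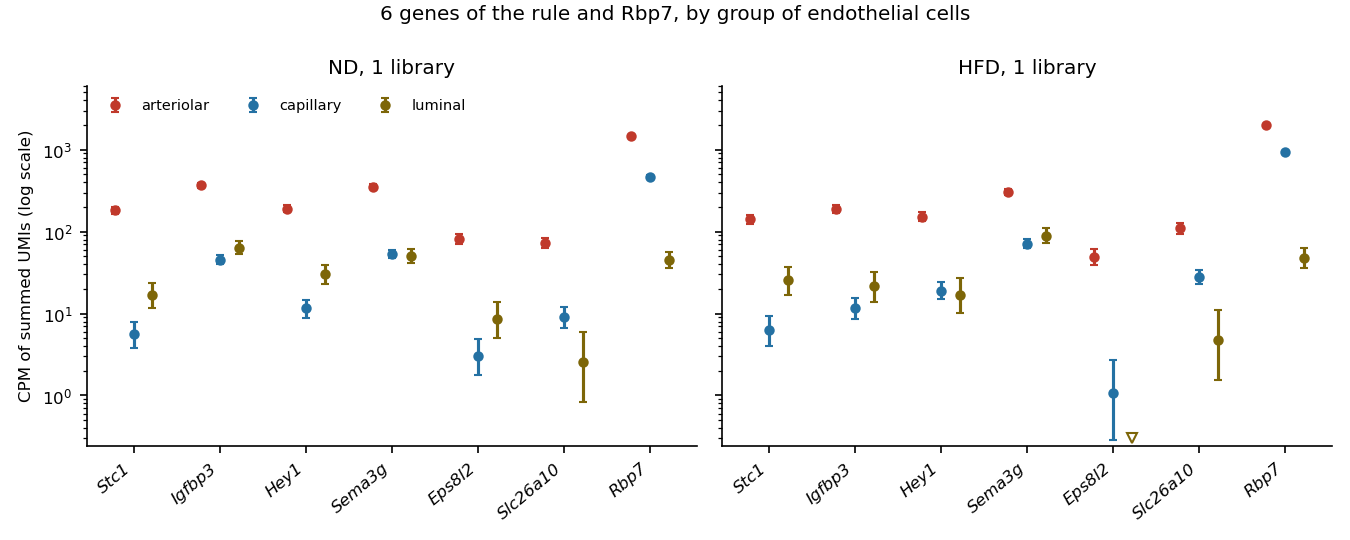
Levels of the 6 genes of the rule and of Rbp7 in ND (left) and HFD (right), in CPM on a log axis, for arteriolar, capillary and luminal endothelial cells, with exact 95% intervals for counting error. Arteriolar cells lay highest for every gene in both libraries; for the 6 genes this follows from the rule, and an open triangle marks the 1 group without a UMI, Eps8l2 in HFD luminal cells.

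For the 6 genes themselves the gap between members and capillary cells was set by the choice of cells. Members needed at least 3 of them and capillary cells could have at most 1, so the levels are a description. Stc1 stood at 183 CPM in ND members and 142 CPM in HFD members, with 5.60 and 6.36 CPM in capillary cells. Hey1 stood at 191 and 152 CPM against 11.6 and 19.1 CPM. Sema3g was present at 355 and 303 CPM in members but kept 53.4 and 71.5 CPM in capillary cells. Igfbp3 was at 367 and 190 CPM against 45.3 and 11.7 CPM. Eps8l2 was at 81.0 and 49.1 CPM against 3.07 and 1.06 CPM, with 8.67 CPM in ND luminal cells and no UMI in HFD luminal cells. Slc26a10 was at 72.8 and 110 CPM against 9.03 and 28.1 CPM. A UMI of Sema3g was found in 88.0% of ND and 93.0% of HFD members, of Hey1 in 67.7% and 70.2%, and of Stc1 in 57.8% and 51.3%.

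The sequences before the starts of Rbp7, which was higher in the members, and of Aqp1, the water channel gene that was lower in them, are shown because both hold the core letters recognised by RBPJ, the DNA-binding partner of Notch. Each line gives the 250 bases before the RefSeq start on GRCm38.p6, 5′ to 3′ on the gene's strand, with the searched letters TGGGAA or their reverse complement TTCCCA in capitals. The Rbp7 window is chr4:149454969-149455218 on the minus strand, at the upstream edge of the gene (GENCODE M21 chr4:149449687-149454978). The Aqp1 window is chr6:55336049-55336298 on the plus strand, upstream of the gene (chr6:55336432-55348555).
Rbp7: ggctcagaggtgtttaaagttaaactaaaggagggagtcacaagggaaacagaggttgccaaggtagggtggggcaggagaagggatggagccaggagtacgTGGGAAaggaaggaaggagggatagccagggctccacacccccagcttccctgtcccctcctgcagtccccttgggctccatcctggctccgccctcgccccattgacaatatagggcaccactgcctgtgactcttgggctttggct
Aqp1: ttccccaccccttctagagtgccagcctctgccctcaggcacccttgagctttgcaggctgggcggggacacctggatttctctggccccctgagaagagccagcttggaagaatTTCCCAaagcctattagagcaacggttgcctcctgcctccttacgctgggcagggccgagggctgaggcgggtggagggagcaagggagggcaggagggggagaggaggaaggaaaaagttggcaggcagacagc
These letters are common, and 7094 of 32851 such windows (21.6%) held them on 1 or the other strand. Of the 6 rule genes and Rbp7, 5 were in the RefSeq promoter table and only Rbp7 matched. Hey1 and Stc1 were not found in it. Among the genes highest in members, described next, 9 of 12 were in the table and Fbln5 and Sorbs2 matched, while of the 12 lowest 7 were in it and Adamtsl3, Aqp1, H2-Aa and Lyz2 matched. A match here describes letters, not binding.

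The members differed from capillary cells by 2-fold in few genes, most of them higher. Of 8820 genes with at least 30 UMIs over both groups in each library, 91 were higher by at least 2-fold in both libraries (1.03%) and 18 were lower (0.204%). These counts leave out the 16 genes that chose the cells. The median log2 ratio over all genes was 0.09 in ND and 0.13 in HFD. With 21 ND and 31 HFD members left out because over 1% of their UMIs came from marker genes of another cell type, and capillary cells treated alike, 88 of 8227 genes were higher (1.07%) and 18 lower (0.219%).

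Col8a1, Stmn2, St8sia6 and Fbln5 were the highest in members, ranked by the library with the smaller ratio. Col8a1, a short-chain collagen of vessel walls, stood at 101 CPM in ND members and 56.8 CPM in HFD members, against 4.69 and 4.24 CPM in capillary cells, a log2 ratio of 4.42 (3.84 to 5.07) and 3.75 (2.97 to 4.61). Fbln5, which encodes fibulin-5 and is needed to assemble elastic fibres, stood at 164 and 223 CPM against 20.9 and 35.2 CPM (log2 2.97 and 2.66). The gene lies at chr12:101746565-101819055 on the minus strand. Stmn2, a microtubule regulator best known from neurons, stood at 82.7 and 97.5 CPM against 5.60 and 10.3 CPM. St8sia6, a sialyltransferase gene, was at 55.3 and 66.4 CPM against 2.53 and 7.42 CPM. For each of these genes both libraries put members above capillary cells, with no overlap of the intervals. Luminal cells had 87.2 and 407 CPM of Col8a1, 108 and 192 of Stmn2, 805 and 1696 of Fbln5 and 10.7 and 24.5 of St8sia6.

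The other 8 genes of the 12 highest had various functions. Edn1, the precursor of the vasoconstrictor endothelin-1, stood at 72.8 and 81.4 CPM against 11.4 and 18.8 CPM in capillary cells (log2 2.68 and 2.11). Plat, tissue plasminogen activator, stood at 119 and 197 CPM against 36.5 and 68.4 CPM. Inhbb, an activin and inhibin subunit, had log2 ratios of 2.05 and 1.60, and Clu, the secreted chaperone clusterin, 1.83 and 2.58. The rest were Atp2a3, a calcium pump of the endoplasmic reticulum (2.44 and 2.18), Sorbs2, an adhesion and actin scaffold (2.06 in each library), Notch3 (2.36 and 1.83) and Car7, a carbonic anhydrase (1.71 and 1.75). Notch3 UMIs were concentrated, since 28 ND and 35 HFD members had any.

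**Figure D2:**
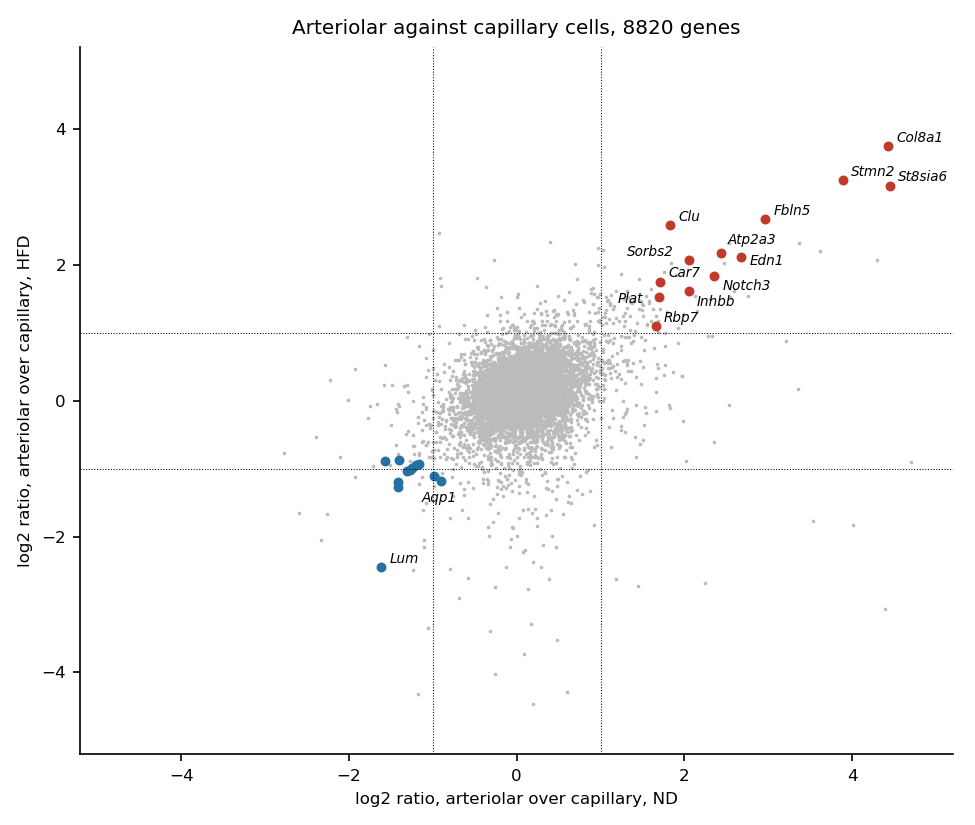
Log2 ratio of CPM in arteriolar over capillary cells for 8820 genes, ND on the horizontal and HFD on the vertical axis; dotted lines mark 2-fold, red points are the 12 highest genes and Rbp7, and blue points the 12 lowest. Most genes lie near 0 in both libraries, 91 lie beyond 2-fold at upper right and 18 at lower left, and 3 genes lie outside the axes.

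Of the arterial identity genes, 20 could be compared, 5 were higher in both libraries and none was lower, with a median log2 ratio of 0.98 in ND and 0.80 in HFD. The 5 were Fbln5, Clu, Alpl, Gja4 and Mecom, and Mecom is named only because the count is small. Alpl, tissue-nonspecific alkaline phosphatase, stood at 60.4 CPM in ND members against 3.07 CPM (log2 4.30) and at 37.7 CPM in HFD members against 9.01 CPM (2.06). Gja4, a connexin of arterial endothelium, rested on 38 and 50 UMIs in members and had log2 ratios of 2.59 (1.69 to 3.56) and 1.61 (0.97 to 2.26). Its HFD ratio from full counts was -0.041 when the groups were chosen on cells thinned to 2000 UMIs, at 2 or more genes. Without the members and capillary cells that held RNA of other types, 4 of 20 were higher. Efnb2, the ephrin that marks arteries, stood at 322 and 316 CPM against 132 and 166 CPM, log2 1.29 and 0.93. Unc5b, a netrin receptor of arterial endothelium, was at 158 CPM against 46.6 CPM in ND and 101 CPM against 50.3 CPM in HFD. Sox17, an arterial transcription factor, differed less, with log2 ratios of 0.36 and 0.24.

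Among further arterial genes Bmx, Hey2 and Gkn3 were near 0 in the members, while Gja5 stood above capillary cells and far below luminal cells. Bmx, an arterial tyrosine kinase, had 15 and 7 UMIs in all members, 6.43 and 4.19 CPM, against 324 and 243 CPM in luminal cells. Hey2, a second Hey factor, had 4 and 3 UMIs, against 133 and 149 CPM in luminal cells. Gkn3, which marks arterial endothelium of the brain, had 3 and 2 UMIs. Gja5, the gap junction gene connexin 40, had 92 UMIs in ND members (39.4 CPM) and 18 in HFD members (10.8 CPM), with 0.361 and 0.530 CPM in capillary cells and 424 and 498 CPM in luminal cells; it was too sparse in HFD to enter the counts.

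In the Notch pathway, 19 genes could be compared, 1 was higher in both libraries and none was lower. That gene was the receptor Notch3, which mural cells also use. The ligand Dll4 stood at 154 CPM in ND members against 91.5 CPM, and at 73.0 CPM in HFD members against 50.3 CPM (log2 0.75 and 0.54). The ligand Jag1 had log2 ratios of 0.65 and 0.79, the receptor Notch1 0.53 and 0.44, and the target Heyl 0.68 and 1.34. The pathway median was 0.05 in ND and 0.20 in HFD, near the 0.09 and 0.13 of all genes.

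Capillary and lipid handling genes stood close to capillary levels in the members. Of 22 genes compared, none was higher and 1, Aqp1, was lower in both libraries, with medians of -0.13 and 0.02. Cd36, the fatty acid translocase, stood at 3466 CPM in ND members against 3838 CPM in capillary cells, and at 5489 against 5401 CPM in HFD. Lpl, lipoprotein lipase, stood at 680 against 736 CPM and 1155 against 1299 CPM. Car4, a carbonic anhydrase on the capillary surface, stood at 337 against 321 CPM and 489 against 475 CPM. Fabp4, a fatty acid carrier, had log2 ratios of -0.18 and -0.01. Gpihbp1, used to choose the capillary cells but not the members, stood at 2131 CPM in ND members and 2093 CPM in HFD members, and 323 of 334 and 225 of 228 members had a UMI of it.

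Aqp1 stood apart from these genes. It was at 2095 CPM (2036 to 2154) in ND members against 5175 CPM in capillary cells, and at 1529 CPM (1470 to 1589) in HFD members against 3133 CPM, a log2 ratio of -1.31 (-1.35 to -1.26) and -1.04 (-1.10 to -0.97). It had a UMI in 182 of 334 ND and 154 of 228 HFD members. Aplnr, the apelin receptor, stood at 32.6 against 64.3 CPM and 10.2 against 22.0 CPM. The class II antigen presentation genes H2-Aa, Cd74 and H2-Eb1 and the macrophage gene Lyz2 were also among the 12 lowest, with Cd74 at 40.3 against 95.7 CPM in ND and 44.9 against 89.0 CPM in HFD. In HFD the ratios of H2-Aa, Cd74 and H2-Eb1 turned above 0 when cells were limited to 20% mitochondrial UMIs. Cox7a1, Adamtsl3, Sdk2 and Hp were among the 12 as well. Lum, a fibroblast proteoglycan gene, led the list with log2 ratios of -1.61 and -2.45, and these were -0.47 and -0.79 without the cells that held RNA of other types. The same exclusion left Lyz2 at -0.50 and -0.41 and Hp at -0.45 and -0.53. Fibroblast markers summed to 732 CPM in ND and 614 CPM in HFD members against 908 and 1213 CPM in capillary cells, and their part in this was not tested.

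Venous genes were lower in the median, at -0.35 in ND and -0.47 in HFD. Of 8 compared, none was higher or lower by 2-fold in both libraries, and without cells holding RNA of other types 1 was lower, Lrg1 (-1.44 and -2.67). Nr2f2, the venous fate factor, stood at 45.0 against 88.8 CPM in ND and 53.2 against 95.4 CPM in HFD. Ackr1 and Selp, which mark venules, had 1 or 2 UMIs in the members of each library. Of the genes of vascular tone, 3 of 19 were higher and none was lower, namely Edn1, Gja4 and Gucy1a1, a subunit of the nitric oxide receptor (log2 1.60 and 1.64). Nos3, endothelial nitric oxide synthase, stood at 108 against 101 CPM and 142 against 106 CPM.

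The other groups had few genes past 2-fold, beside 1.03% higher and 0.204% lower of all 8820 genes. Of 17 basement membrane and matrix genes 2 were higher, Fbln2 (log2 1.66 and 1.24) and Col18a1 (1.04 and 1.96), whose ND ratio was -0.13 against the capillary cells without Cxcl9. Of 12 adhesion and chemokine genes 1 was higher, the fractalkine gene Cx3cl1, at 50.6 against 21.7 CPM in ND and 32.9 against 14.6 CPM in HFD. Cxcl12, which attracts CXCR4-bearing cells, stood at 752 against 415 CPM and 1471 against 821 CPM, just short of 2-fold. In the TGF-beta and BMP group Tgfb2 was higher (1.98 and 1.27) and Bmp4 lower (-1.13 and -1.12), of 19. Neither was called without cells holding RNA of other types, where Tgfb2 was too sparse to enter (3.77 and 2.40) and Bmp4 had -1.15 and -0.51. Of 10 haemostasis genes only Plat was higher, of 14 junction genes only Gja4, and of 14 flow-responsive genes only Edn1. No gene passed 2-fold in both libraries among 13 semaphorin and plexin genes, 13 VEGF and angiopoietin genes, 9 genes of IGF binding and signalling, 15 immediate early genes, 9 heat shock genes, 8 sterol genes, 13 PPAR target genes, 12 clock genes and 6 cell cycle genes.

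Smooth muscle and pericyte markers moved with the members and have to be read beside these results. Of 9 such genes 6 were higher than in capillary cells in both libraries, with medians of 1.07 and 1.57. Summed over the list they stood at 837 CPM in ND members and 1069 CPM in HFD members, against 304 and 432 CPM in capillary cells. Rgs5, a mural cell gene, made up most of this, at 566 and 560 CPM in members, and Myh11, the smooth muscle myosin, had 59 and 27 UMIs. In 7 ND and 6 HFD members the list took over 1% of the UMIs. Without all cells that held RNA of any other type the sums were 619 and 904 CPM, and 5 of 7 genes were higher. Under another scaling, median of ratios, 2 of 9 were higher. The part of mural RNA in Notch3 and Gucy1a1 was not tested.

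Some genes that the rule did not use differed in steps with the number of rule genes that a cell expressed, and Rbp7 and Aqp1 did so below the limit of 3 as well. Rbp7 in ND stood at 349 CPM in cells with none of the 6 genes, 593 with 1, 858 with 2, 1179 with 3, 1905 with 4 and 1656 with 5 or 6. In HFD the same steps were 734, 1061, 1278, 1785, 2114 and 2626 CPM. Aqp1 ran the other way, from 5293 CPM with none to 1238 CPM with 5 or 6 in ND, and from 3149 to 877 CPM in HFD. Fbln5 went from 25.5 to 275 CPM in ND and from 46.7 to 353 CPM in HFD, and below 3 genes it stayed within 25.5 and 40.5 CPM in ND and 36.4 and 59.0 CPM in HFD. Edn1 in ND was at 15.3, 17.4 and 14.9 CPM with 0, 1 and 2 genes and at 39.2 CPM with 3. Cd36 stayed within 3357 and 3791 CPM in ND. Deeper cells show more genes, and median depth also increased along the steps, from 3101 to 5959 UMIs in ND and from 4792 to 8220 UMIs in HFD. The part of depth in these steps was not tested.

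**Figure D3:**
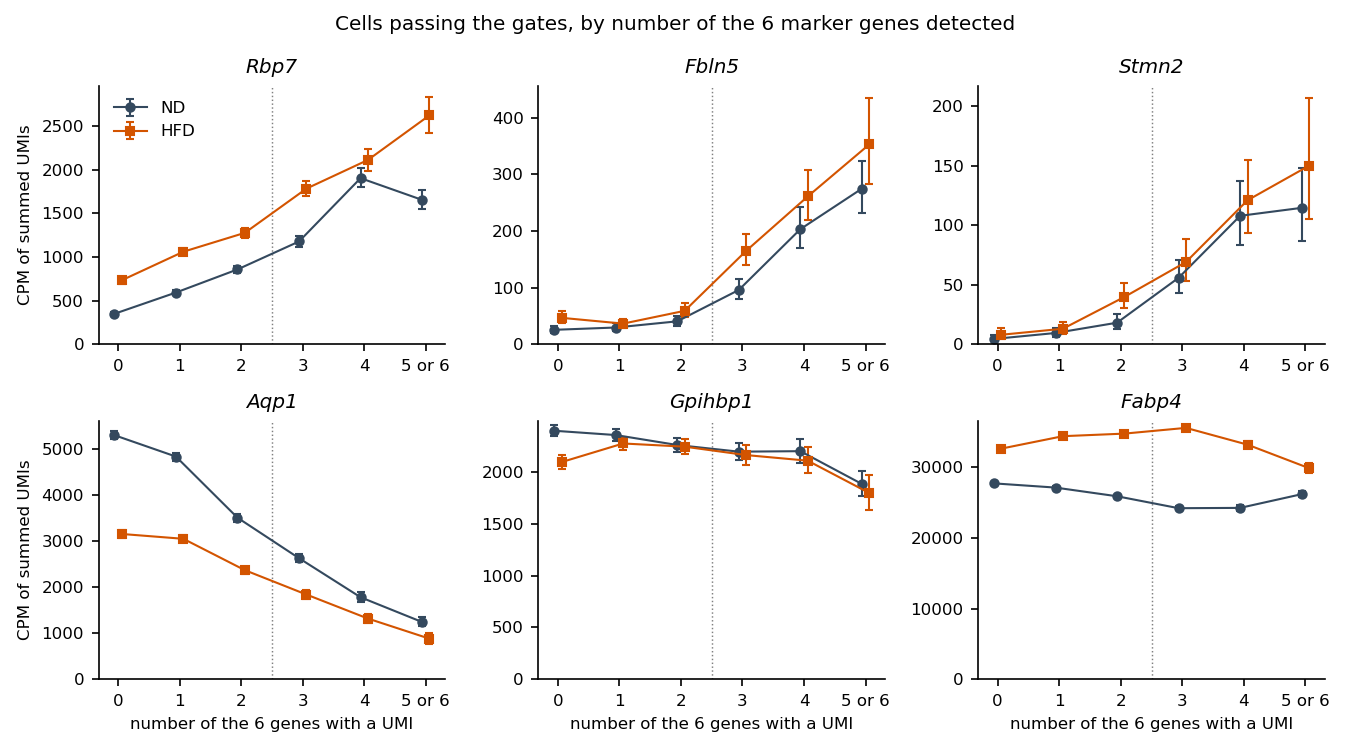
Summed CPM (linear axis) of 6 genes that the rule did not use to count, by the number of the 6 rule genes with a UMI (0 to 5 or 6). Cells are the ND and HFD endothelial cells that passed the same limits. Bars are exact 95% intervals and the dotted line is the rule's limit of 3. Rbp7, Fbln5 and Stmn2 lie higher and Aqp1 lower toward the right, while Gpihbp1 and Fabp4 stay near one level.

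The members were not uniform. Fbln5, chosen after its values were seen, had a UMI in 147 of 334 ND and 117 of 228 HFD members. Leaving out cells that held RNA of other types, 133 ND members with Fbln5 were set against 180 without, at median depths of 5403 and 5426 UMIs, and 103 HFD members against 94, at 5865 and 6535 UMIs. Edn1 stood at 135 CPM in Fbln5-positive ND members against 30.6 CPM in the others, and at 151 against 15.4 CPM in HFD (log2 2.14 and 3.29). Stmn2 stood at 179 against 20.1 CPM and 178 against 36.3 CPM, and Col8a1 at 210 against 29.8 CPM and 117 against 11.2 CPM. Gja5 had 72 UMIs against 10 in ND and 16 against 1 in HFD. The UMIs of these genes thus lay mostly in the Fbln5-positive members.

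Aqp1 was lower in the Fbln5-positive members, at 852 against 3224 CPM in ND and 790 against 2236 CPM in HFD, so the Fbln5-negative members stood between these and the capillary cells. Cd36 was at 3438 against 3832 CPM and 5513 against 6021 CPM, and Sox17 had log2 ratios of -0.14 and 0.09, so neither separated the members. Rbp7 was at 2015 against 1274 CPM in ND (log2 0.66) and 2169 against 2014 CPM in HFD (0.11). Cytl1 had 2 and 4 UMIs in ND and none in HFD, which puts this marker of the aortic lumen near 0 on both sides. Mural genes were uneven here too. The smooth muscle actin gene Acta2 had 57 UMIs against 7 in ND and 20 against 11 in HFD, although members with over 1% of such RNA had been left out. The fibroblast gene Dcn had 92 against 17 in ND and 16 against 40 in HFD. Their part in the split was not tested.

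**Figure D4:**
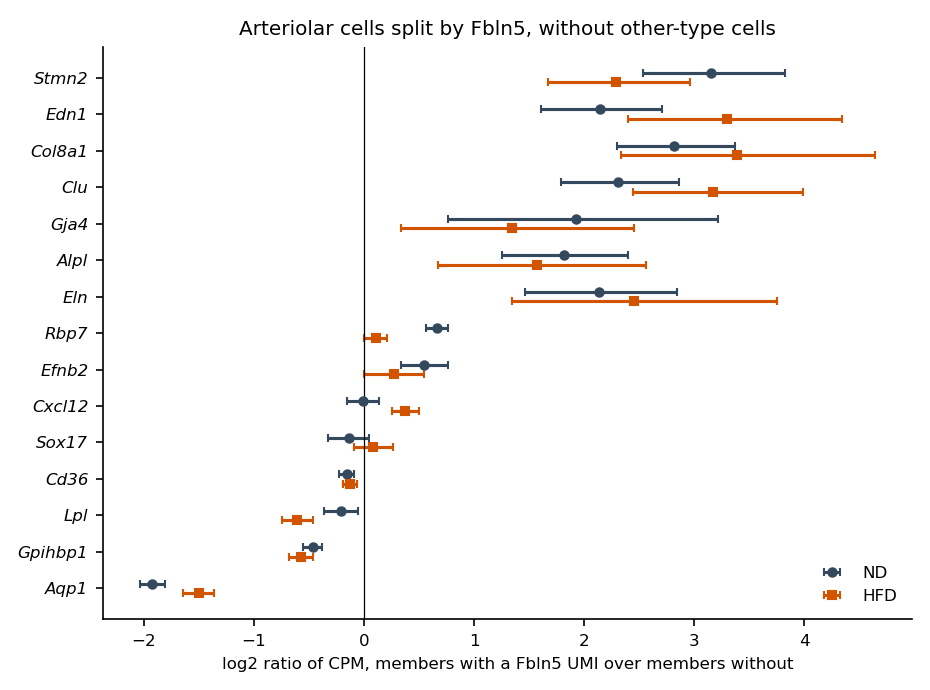
Log2 ratio of CPM in members with at least 1 Fbln5 UMI over members without, in ND and HFD, for 15 genes with exact 95% intervals, leaving out cells that held RNA of other types. Stmn2, Edn1, Col8a1 and Clu lie to the right of 0 and Aqp1 to the left, while Cd36 and Sox17 lie near 0.

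The members differed from the luminal endothelium of the aorta in many more genes. Of 7803 genes, 604 were higher by at least 2-fold in both libraries (7.74%) and 657 were lower (8.42%). Of the capillary and lipid genes 17 of 21 were higher and 1 was lower, with median log2 ratios of 3.05 and 3.81. All 7 luminal genes compared were lower, with medians of -5.48 and -5.10. Members and capillary cells had to have fewer than 5 UMIs of Vwf and Vcam1, and luminal cells at least 5. Levels of genes that go with these 2 are therefore a description of that choice. Erythroid markers were higher in 4 of 4, with medians of 5.82 and 5.53, and their part in this comparison was not tested. Arterial identity genes fell on both sides, 6 higher and 10 lower of 24. Of the 12 genes highest in members over capillary cells, 5 were at least 2-fold lower than in luminal cells in both libraries, 4 were higher and 3 were neither. Atp2a3, Clu, Edn1, Fbln5 and Sorbs2 were the lower ones. Edn1 stood at 953 and 796 CPM in luminal cells, and Clu at 2096 and 3452 CPM. St8sia6, Notch3, Car7 and Inhbb were the higher ones, with St8sia6 at 10.7 and 24.5 CPM in luminal cells.

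The question of the study was how the diet changed the cells of the arch. Between the HFD and ND members, 158 of 8661 genes were higher by at least 2-fold with an interval clear of 0 (1.82%), 514 were lower (5.93%), and the median log2 ratio was -0.13. Without members holding RNA of other types the counts were 170 (2.07%) and 416 (5.06%) of 8225 genes. The 10 largest falls by the fixed ranking were led by airway secretory genes. Bpifa1 had 6035 UMIs in ND members and none in HFD members, and Scgb1a1 had 1745 and none. Of the 9243 UMIs of the club cell markers in ND members, 8696 (94.1%) came from 1 cell, and ND members without RNA of other types still held 245 CPM. The same list stood at 0 UMIs in all HFD members.

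RNA of red cells and fat also moved with the diet. Erythroid markers summed to 4804 CPM in ND and 19688 CPM in HFD members, and to 181 and 534 CPM without cells holding RNA of other types. Hbb-bt, Hbb-bs, Hba-a1, Hba-a2 and Alas2 are listed among the 10 largest rises. Ucp1, the uncoupling protein of brown fat, led the ranking at 7.28 CPM in ND and 101 CPM in HFD members. It went from 24.9 to 120 CPM in capillary cells. Of 5 adipocyte genes compared, only Ucp1 was higher by 2-fold, and 2 were lower. Adipoq went from 35.6 to 7.78 CPM in members, and the adipocyte list, Ucp1 included, from 378 to 165 CPM. In ND 660 of the 882 UMIs of the list lay in 1 member. Without cells holding RNA of other types the list went from 102 to 174 CPM, and Ucp1 alone from 7.10 to 104 CPM. Upk3b, a mesothelial gene, had 98.4% of its HFD UMIs in 1 cell and a log2 ratio of -2.01 without cells holding RNA of other types. The part of free or attached RNA in these genes was not tested.

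Among genes that are not markers of another type, Slc6a6, the taurine transporter, had the most UMIs of the largest rises. It stood at 325 CPM in ND members and 1509 CPM in HFD members, a log2 ratio of 2.21 (2.10 to 2.33). In capillary cells it went from 83.0 to 1173 CPM (3.82), and in luminal cells from 32.6 to 122 CPM (1.90). Members thus had a log2 ratio over capillary cells of 1.97 in ND and 0.36 in HFD. Emp1, a membrane protein gene, stood at 105 and 393 CPM in members (1.90). Postn, the matrix protein periostin, stood at 50.6 and 168 CPM (1.73). Gas1, a surface co-receptor of hedgehog signalling, stood at 12.9 and 84.4 CPM, and went from 17.9 to 24.1 CPM in capillary cells. With cells holding RNA of other types left out, and only genes with at most 10% of their UMIs in 1 cell ranked, Slc6a6 had 2.23, Postn 2.33 and Emp1 2.07. Slc25a24 (2.70), Pth1r (2.36), Ramp3 (2.27) and Abi3 (2.22) were the other genes of that ranking beside Ucp1 and the globin genes Hbb-bt and Hbb-bs. Gas1 (2.73) was kept out of it by the limit on 1 cell, as 30.5% of its UMIs over all HFD members lay in 1 cell.

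The largest falls after the same exclusion included chaperone genes. Hsph1, a heat shock chaperone, stood at 76.6 CPM in ND and 15.5 CPM in HFD members (-2.31), with -2.61 in capillary cells. Stip1, a co-chaperone, stood at 103 and 25.4 CPM. Of 9 heat shock genes 1 was lower by the 2-fold rule. Srf, the serum response factor, stood at 214 and 54.2 CPM (-1.98), with -2.06 in capillary cells. Stxbp6 stood at 69.1 and 7.04 CPM (-3.29), with -2.80 in capillary cells. Cyp26b1, which degrades retinoic acid, had a ratio of -2.77 in members and -2.43 in capillary cells. Luminal cells, all of them counted, had -1.91 for Srf, -0.46 for Stxbp6 and -2.56 for Cyp26b1. Cdh23 (-2.81), Acss1 (-3.13), Dapk2 (-1.99) and Tril (-2.75) completed the ranking with Bpifa1.

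**Figure D5:**
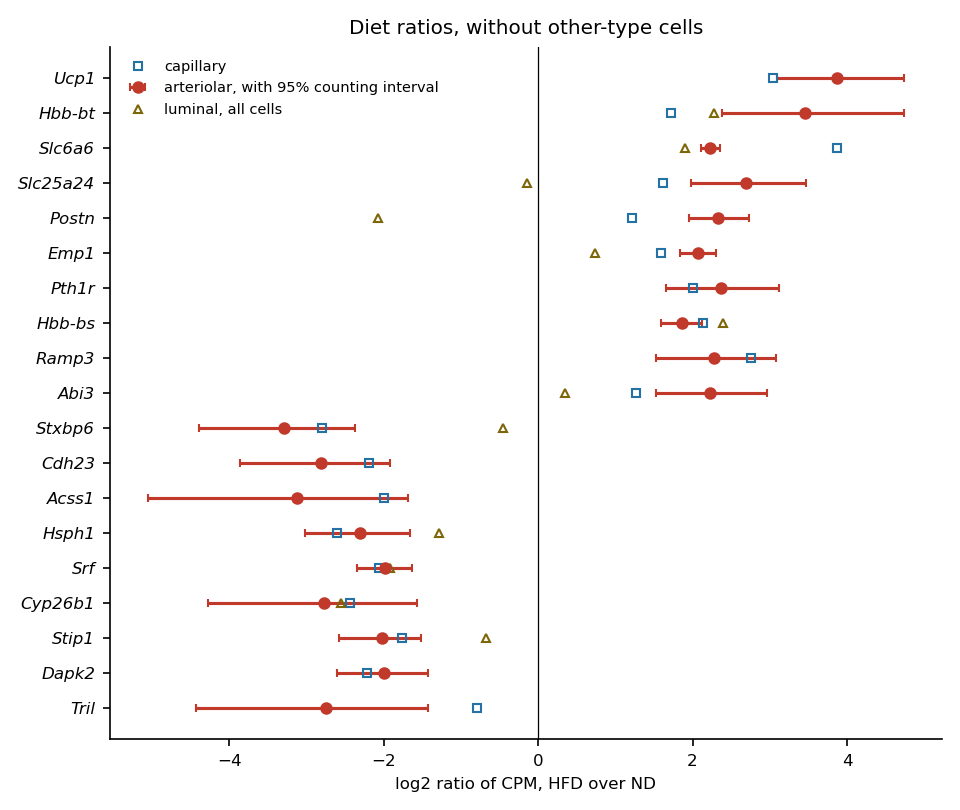
Log2 ratio of HFD over ND for 19 genes, the largest rises and falls in arteriolar cells after leaving out cells that held RNA of other types, with exact 95% intervals in arteriolar cells, the ratios of capillary cells after the same exclusion and those of all luminal cells beside them. Slc6a6 has a larger ratio in capillary than in arteriolar cells, and Hsph1, Srf and Cyp26b1 have similar ratios in both.

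Every member in both libraries had to carry at least 3 of the rule genes, so the levels of these genes by diet are a description. For the same reason their ratios cannot show whether they moved less or more with the diet than other genes. The log2 ratio of HFD over ND was -0.95 (-1.14 to -0.76) for Igfbp3, -0.72 for Eps8l2, -0.37 for Stc1, -0.33 for Hey1, -0.23 for Sema3g and 0.60 (0.29 to 0.91) for Slc26a10. Rbp7, not used in the choice, had 0.45 (0.38 to 0.51), while the same ratio in capillary cells was 1.01.

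Of 21 arterial identity genes 1 was higher in HFD members, Slc6a6, and 4 were lower, with a median of 0.02. The 4 were Dll4 (-1.08), Gja5 (-1.87), Vegfc (-1.27) and Cxcr4 (-2.17), and Cxcr4, a chemokine receptor, rested on 44 and 7 UMIs. In capillary cells the ratio was -0.86 for Dll4 and 1.06 for Vegfc, a lymphatic growth factor gene. Of 17 Notch genes 1 was lower, Dll4. Efnb2 was at 322 and 316 CPM, a log2 ratio of -0.03 (-0.19 to 0.14).

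Of 22 capillary and lipid genes none was higher and 2 were lower, Apln and its receptor Aplnr, with a median of 0.28 against -0.13 over all genes. Cd36 had a log2 ratio of 0.66 (0.62 to 0.71), Lpl 0.76 and Mgll, monoglyceride lipase, 0.80, all short of 2-fold, and the capillary cells had 0.49, 0.82 and 0.75. Of 13 PPAR target genes 1 was higher, the mitochondrial carrier Ucp2, at 137 CPM in ND and 279 CPM in HFD (1.03), with Angptl4, an inhibitor of lipoprotein lipase, at 0.90.

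Of 12 adhesion and chemokine genes none was higher and 4 were lower in the HFD members, beside 1.82% and 5.93% of all 8661 genes. The 4 were Cxcl10 (-2.63), Cxcl2 (-1.67), Cxcl1 (-1.42) and Ackr3, a scavenger receptor of Cxcl12 (-1.32). Cxcl12 went the other way without passing 2-fold, from 752 to 1471 CPM (0.97). Icam1, the leukocyte adhesion molecule, had -0.26. Of 19 antigen presentation and interferon genes none was higher and 2 were lower, among them Tap1, a peptide transporter subunit (-1.09), with a median of -0.56. Without cells holding RNA of other types 5 of 19 were lower. In capillary cells the same group had a median of -0.86 with 6 lower. Thbd, the anticoagulant receptor thrombomodulin, stood at 144 and 291 CPM (1.01).

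The remaining groups hold few genes each, so their shares are coarse beside the 1.82% higher and 5.93% lower of all 8661 genes. Of 19 genes of vascular tone 1 was higher and 4 were lower, of 10 haemostasis genes 2 and 2, of 9 IGF genes 1 and 2, of 13 flow-responsive genes 1 and 1, and of 6 cell cycle genes 1 and 1. None was higher among 15 junction genes, 14 semaphorin and plexin genes, 13 VEGF and angiopoietin genes, 11 sterol genes and 8 venous genes, of which 2, 2, 1, 1 and 2 were lower. Lymphatic genes were lower in 4 of 5, led by Ccl21a with 334 UMIs in ND and none in HFD members, and the lymphatic list summed to 291 and 62.2 CPM. For each gene, the ND member with the most UMIs held 87.4% of those of Ccl21a, 64.3% of Prox1, 63.4% of Lyve1 and 52.6% of Mmrn1. Without cells holding RNA of other types Ccl21a had 3 UMIs in ND, 1 lymphatic gene could be compared and none was lower. The same exclusion moved the IGF genes to none higher and 4 lower of 8, the genes of vascular tone to 2 and 4 of 18 and the sterol genes to none lower of 8. Of 10 clock genes 2 were higher, Nr1d1 (1.52) and Nr1d2 (1.35), and 1 was lower, Per2 (-1.42). Of 18 TGF-beta and BMP genes 1 was higher, Smad6 (1.02), and 3 were lower, among them Tgfb2 (-1.30). From the basement membrane and matrix list 17 genes were compared, and the only higher one was Emp1, a membrane protein gene. The 2 lower ones included Sparcl1, at 948 and 445 CPM (-1.09). Of 15 immediate early genes none passed 2-fold in either direction. Smooth muscle and pericyte markers were higher in 5 of 10 and lower in none, with a median of 1.01. Without cells holding RNA of other types 3 of 8 were higher and 1 was lower, with a median of 0.50. Kcnj8, a potassium channel gene of mural cells, had 25 and 64 UMIs (1.84) and Pdgfrb, the pericyte growth factor receptor, 57 and 100 UMIs (1.29). The list's part in the differences between the diets was not tested.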

How the data were processed

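Single-cell suspensions of 2 pooled aortic arches per diet were sequenced on the 10x Genomics platform. Per the file headers and the submitters' processing notes the authors made the UMI counts per gene and barcode with Cell Ranger 3.0.1 on mm10 and used Seurat 3.2.0 in R 4.0.0. No source used here gives the annotation release behind the counts. The deposited matrices hold counts of 31053 genes, 32806635 UMIs in ND and 41305446 in HFD, and were used unchanged.

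Members, capillary and luminal cells were chosen per library by the limits given above. The members and gene lists (33 lists) were chosen with earlier results of these data known. Each gene's counts in a group of cells were added up and divided by the group's total (CPM), with exact Poisson intervals, exact conditional binomial intervals for log2 ratios and Clopper-Pearson intervals for shares (Python 3.11.15, numpy 2.4.6, scipy 1.17.1, pandas 2.3.3). A group with 0 UMIs was set to 3 UMIs for a ratio, as a bound. Genes entered a count with at least 30 UMIs over both groups in each library, or over both libraries between the diets. A call needed 2-fold in the same direction in both libraries, or 2-fold with the interval clear of 0 between the diets. PCR copies are collapsed by UMI, and intervals cover counting error only.

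Named are the 6 rule genes and Rbp7, the 12 highest and 12 lowest genes over capillary cells (at least 100 UMIs in each library, ranked by the library nearer to 0), the 10 largest rises and falls between diets (at least 50 UMIs, ranked by the interval's bound nearer to 0), and up to 4 members and the defining genes of each list. A gene outside these is named only where it makes up a count of 5 or fewer, or was chosen after its values were seen, and some genes that the rule names are not reported here. A diet ranking without cells of other types, and without genes that had over 10% of their UMIs in 1 cell of the higher library, was added after seeing the data.

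Scrublet (scanpy 1.11.5) marked 0 ND and 1 HFD cells, too few to have worked, so no cell was removed as a doublet, and 7 of 334 and 6 of 228 members lay in the top 6% of scores. Scripts were tested on simulated counts. Promoter windows came from RefSeq (GRCm38.p6) and positions from GENCODE M21. Figures were drawn with matplotlib 3.10.9.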

Additional observations from a re-analysis of the deposited data

Results flagged for a closer look

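In 7 genes the log2 ratio of HFD over ND in the members passed 2-fold one way while capillary or luminal cells passed it the other way. None of these differences was tested, since each diet had 1 library. Dll4, the Notch ligand, was -1.08 in members and 1.03 in luminal cells. Vegfc was -1.27 in members and 1.06 in capillary cells. Postn was 1.73 in members and -2.07 in luminal cells. Ighm, an immunoglobulin gene, was 2.51 in members and -3.35 in luminal cells, with 24 UMIs in ND and 98 in HFD members, 76.5% of the latter in 1 cell. Gpm6a, a mesothelial marker, was 1.26 in members, -1.07 in capillary cells and -2.04 in luminal cells, with 83.3% of its HFD UMIs in 1 member. The neutrophil genes S100a9 and S100a8 were 1.10 and 1.03 in members and -4.74 and -5.50 in capillary cells. The neutrophil list summed to 978 CPM in ND and 28.4 CPM in HFD capillary cells. Of its 5420 UMIs in ND capillary cells 4360 lay in 1 cell, and of its 45 UMIs in HFD members 26 lay in 1 cell.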

How the results depend on the processing

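No paired analysis was possible because each diet had 1 library. Where a value moved, the cause was not tested. For the alternative on thinned cells, groups were chosen from counts thinned to 2000 UMIs, with members at 2 or more of the 6 genes. Cells under 2000 UMIs were left out there, and gene values were summed from the full counts. The share of members in ND was 32.8% with at least 2 of the 6 genes, 7.85% with at least 4 and 20.5% at a mitochondrial limit of 20%, and in HFD 39.8%, 8.94% and 29.0%, with 14.8% on cells thinned to 2000 UMIs.

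The 91 genes higher than in capillary cells became 203 at a minimum of 10 UMIs, 38 at 100 and 269 with none, and stayed within 1.5 times under the other alternatives. The 18 lower genes moved more, to 56, 5 and 87 under those minimums, 9 with at least 2 genes, 67 with at least 4, 30 with no limit on Vwf and Vcam1, 63 without the Ptprc and C1q limits, 60 on thinned cells, 29 without mitochondrial, ribosomal and haemoglobin genes, 30 under median of ratios, and 8 against capillary cells chosen by the members' depth. Median of ratios shifted the median of all genes over capillary cells by -0.11 in ND and -0.15 in HFD, left 2 smooth muscle and pericyte genes higher and put 2 capillary genes lower. Between diets the 158 higher genes became 250, 65 and 272 under the 3 minimums, and the 514 lower genes 812, 157 and 831, 793 with at least 2 genes and 317 on thinned cells.

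The ratio over capillary cells turned its sign for Nppa in ND with at least 2 genes (0.43) and at the 20% limit (0.069), and in HFD at that limit for H2-Aa (0.064), Cd74 (0.35) and H2-Eb1 (0.56). Against capillary cells within the quartiles of the members' UMI counts it turned for Cd74 (0.12) and H2-Eb1 (0.27) in HFD and Hp (0.11) in ND. On thinned cells it turned for Gja4 in HFD (-0.041). Without cells of other types, an alternative added after seeing the data, it turned for Mmrn1 in ND (0.27), and the diet ratio for Upk3b (-2.01). Against Cxcl9-positive cells it turned for Ccl21a (2.13) and Mmrn1 (1.51) in ND, and for Lum (0.85) and Hp (0.027) in HFD. Against Cxcl9-negative cells it turned for Col18a1 in ND (-0.13). Of the other values of single genes over capillary cells 1151 moved by less than their counting interval and 274 by more, and between diets 398 and 105. Sparse genes limit what depth can show, since 30 UMIs give wide intervals.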

Other observations

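Barcodes above the limit of 30% mitochondrial UMIs belonged to no comparison. There were 2299 in ND and 7215 in HFD, and 462 and 2768 of them passed the other endothelial and leukocyte limits. Of these, 19 in ND (4.11%, 2.49 to 6.35) and 101 in HFD (3.65%, 2.98 to 4.42) had at least 3 of the 6 genes, at a median mitochondrial share of 35.3% and 41.2%. Per 1000000 UMIs that were not mitochondrial, Rbp7 stood at 1388 for ND and 3084 for HFD in barcodes of this kind, against 1671 and 2428 in the members. Aqp1 stood at 1150 and 1147, against 2369 and 1844 in the members.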
